A study of Mus musculus with 12 samples.

Results

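The voltage-gated sodium channel subunits described here are 7 genes, taken by name from the 33250 gene symbols of the count table. They are the alpha subunit genes Scn1a, Scn2a, Scn3a and Scn8a and the beta subunit genes Scn2b, Scn3b and Scn4b. All 7 had counts in all 12 libraries, from 819 to 22720 per library, and all 7 passed the low-count filter that left 19325 genes for testing. The libraries were polyA RNA from bulk hippocampus of male mice, 6 conditional knockout (cKO) and 6 wild-type (WT) animals. In cKO animals the microRNA cluster from miR379 to miR410 is removed by Cre recombinase in cells positive for Emx1, a homeobox gene of the dorsal forebrain active in the lineage of excitatory neurons and astrocytes. Cells outside that lineage, such as interneurons, microglia and vessel cells, are not the target of the deletion. Which cells lost the cluster was not measured here. The series title calls the mice adult, without an age, and no source used here says whether WT animals carried Cre or floxed alleles. The submitters set the genotypes against each other to look for transcripts that depend on the cluster in glutamatergic neurons.

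A voltage-gated sodium channel is built around an alpha subunit, one long protein that forms the pore, senses voltage and inactivates the channel. Beta subunits are short single-pass membrane proteins that adjust gating, membrane delivery and cell adhesion. In hippocampal neurons the channels are packed at the axon initial segment, held by ankyrin-G, where they start the action potential. Scn1a is prominent in interneurons and its loss in humans underlies Dravet syndrome. Scn2a serves excitatory axons, Scn8a the mature initial segment and nodes of Ranvier, and Scn3a is highest in the developing brain.

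Library totals ranged from 44803793 to 51095816 counts in cKO and from 42360624 to 50804084 in WT. The deleted miRNAs themselves were not measured by this assay as mature molecules. Mirg, a long non-coding RNA that overlaps the cluster, ranged from 23.6 to 46.4 CPM in cKO and from 28.4 to 34.1 CPM in WT (CPM stands for counts scaled to a common library size with TMM factors). Its lowest cKO value was that of the library labelled cKO 1. The other cKO libraries had 32.6 to 46.4 CPM, 2 of them above every WT library, so the ranges overlapped with or without cKO 1. The library labelled cKO 1 went against its label at B830012L14Rik, a non-coding RNA upstream of the cluster: it had 0.788 CPM, the other cKO libraries 17.4 to 25.8 CPM and WT libraries 0.310 to 0.865 CPM. At Emx1 it had 9.14 CPM, the other cKO libraries 5.91 to 6.84 CPM and WT libraries 8.38 to 9.60 CPM. Every direction given for cKO therefore includes 1 library that did not show these differences. Summed excitatory neuron markers (Slc17a7, Camk2a, Neurod6, Prox1) ranged from 5603 to 6524 CPM in cKO and from 5933 to 6653 CPM in WT, with none of the 4 at 0.

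The alpha subunit genes have long mRNAs and 3 of them lie together. Scn3a (65457118 to 65567627, minus strand), Scn2a (65620771 to 65767447, plus strand) and Scn1a (66270778 to 66440840, minus strand) lie on chromosome 2 (GRCm38). Scn8a (100869858 to 101045938, plus strand) is a chromosome 15 gene. The longest coding transcripts have 9560 bases in Scn3a, 8935 in Scn2a, 8386 in Scn1a and 11436 in Scn8a. Scn2b (45117782 to 45130070) and its next coding neighbour Scn4b (45138395 to 45154152) lie on chromosome 9, as does Scn3b (40269217 to 40291618), all on the plus strand, with longest coding transcripts of 4656 bases in Scn2b, 4982 in Scn4b and 4150 in Scn3b. The 3 genes of the chromosome 2 cluster share sequence. Of the 31-base words in the coding transcripts of Scn2a, 9.09% also occur in Scn3a and 6.08% in Scn1a, while 0.243% occur in Scn8a. The deposited counts of Scn1a and Scn3a were not whole in 12 of 12 libraries and those of Scn2a in 10, and those of Scn8a, Scn3b and Scn4b in 0 (tolerance 1e-06). Scn2b, which shares no such word with another subunit, was not whole in 11 libraries, and 24.8 to 25.9% of all values in a library were not whole. Non-coding genes on the opposite strand overlap the bodies, but not the exons, of Scn1a (Gm13630), Scn3a (Gm13595), Scn2b (Gm10684) and Scn3b (Gm47266).

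Since the animals lack a miRNA cluster, the 3′ untranslated regions (UTRs) of the subunits were read for matches to its miRNAs. A miRNA guides silencing proteins to mRNAs that pair with its seed, bases 2 to 8. RefSeq (GRCm38.p6) placed 69 mature miRNAs from 37 hairpins, with 63 different seeds, on the plus strand between Mir379 and Mir410. The 4 whose seed matched in 4 of the 7 subunit genes, and miR-377-3p, with both its matches in Scn8a, are shown with the seed in capitals. None of these 5 shares its seed with another miRNA of the cluster.
mmu-miR-495-3p: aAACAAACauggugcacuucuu
mmu-miR-1197-3p: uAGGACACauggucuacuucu
mmu-miR-666-3p: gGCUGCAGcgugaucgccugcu
mmu-miR-329-3p: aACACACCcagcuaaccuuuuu
mmu-miR-377-3p: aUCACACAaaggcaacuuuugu

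One match per gene shows how these seeds sit in the subunit UTRs. The stretches are read 5′ to 3′ along the mRNA, as DNA letters from the GENCODE M21 transcripts, with the match in capitals, including the A that follows it in an 8-base match.
Scn1a with miR-495-3p, chr2:66272450-66272471, minus strand: catgtgttGTTTGTTAcatgtg
Scn2a with miR-1197-3p, chr2:65765746-65765767, plus strand: tttgataaGTGTCCTttggtaa
Scn3a with miR-1197-3p, chr2:65458091-65458112, minus strand: atggtgttGTGTCCTAacattt
Scn8a with miR-377-3p, chr15:101043882-101043903, plus strand: ctactggtTGTGTGAAaacact
Scn2b with miR-666-3p, chr9:45127095-45127116, plus strand: cttggcctCTGCAGCAgccatc
Scn3b with miR-329-3p, chr9:40289821-40289842, plus strand: caaagataGGTGTGTAgcttct
Scn4b with miR-329-3p, chr9:45153538-45153559, plus strand: gtgcttgtGGTGTGTgggaggt

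In matches per kilobase, Scn3a and Scn3b lay above the level of UTRs in general and the other 5 subunits below it. In the longest annotated 3′ UTR, 7-base matches numbered 7 in Scn1a, 8 in Scn2a, 16 in Scn3a, 18 in Scn8a, 10 in Scn2b, 15 in Scn3b and 9 in Scn4b. Per kilobase this was 3.33, 3.06, 4.65, 3.43, 2.66, 4.72 and 2.47, in the same gene order, beside 4.17 over 15264 tested genes with a 3′ UTR of at least 50 bases. At least 1 match was present in 89.3% of those genes. Among genes whose UTR length was within 10% of the subunit's, 37.0% held at least as many matches as Scn3a and 37.4% at least as many as Scn3b, the 2 densest. For Scn4b, the sparsest, it was 95.0%. Of the 16 matches in Scn3a, 6 overlap in a single GTTT repeat read by miR-495-3p. Matches followed by an A were fewer, from 0 in Scn2a to 6 in Scn3b. Per kilobase Scn3b had 1.89 of them, beside 1.05 over the 15264 genes, and the other 6 subunits had 0 to 0.762. A match is a description of sequence and was not tested as a binding site.

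**Figure D1:**
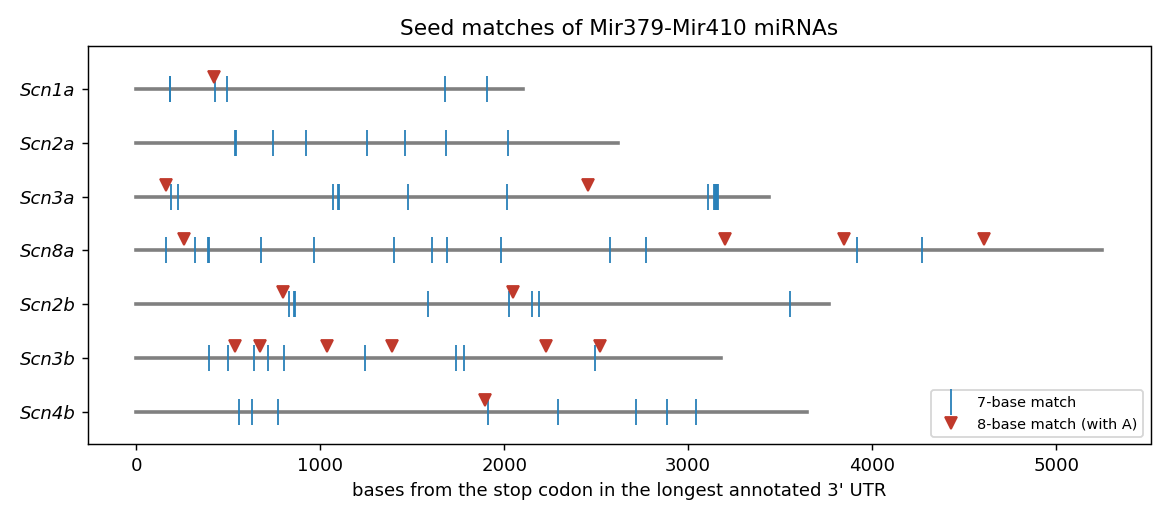
Positions of seed matches of the Mir379-Mir410 miRNAs along the longest annotated 3′ UTR of each subunit gene, in bases from the stop codon; blue ticks are 7-base matches and red triangles 8-base matches, and grey bars show the UTR length. Scn8a has the longest UTR with 5250 bases and 18 matches, and Scn2a has 8 matches and no 8-base match.

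Per transcript length, the beta subunits Scn3b and Scn2b were the most abundant of the 7, and Scn3a and Scn4b the least. Scn3b, a beta subunit bound to the alpha subunit without a covalent link, had 63.1 ± 4.53 CPM per kb in cKO and 66.4 ± 3.60 CPM per kb in WT (SD, n = 6 each). Scn2b, which is joined to the alpha subunit by a disulfide bond, had 61.5 ± 2.93 and 62.1 ± 2.31 CPM per kb in cKO and WT. Over the 12 libraries their ranges overlapped, and Scn3b was the higher in 10 of 12 libraries. The order of these neighbours depended on the length used, since Scn2b was the higher in 12 of 12 with the union of exons. Scn8a followed with 35.8 ± 0.932 CPM per kb in cKO and 38.7 ± 2.27 in WT, below both in all 12 libraries. Scn2a had 28.4 ± 2.47 CPM per kb in cKO and 33.2 ± 3.09 in WT. It lay below Scn8a within each of the 12 libraries, although their ranges over the libraries overlapped.

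Scn1a was next with 11.2 ± 0.749 CPM per kb in cKO and 12.7 ± 1.40 in WT, separate from Scn2a above and Scn3a below in all 12 libraries. Scn3a had 4.99 ± 0.469 CPM per kb in cKO and 5.79 ± 0.407 in WT. Scn4b, a beta subunit that gives resurgent current and is strongest in striatum and cerebellum, had 5.38 ± 1.72 and 4.94 ± 1.17 CPM per kb in cKO and WT. Scn3a lay above Scn4b in 8 of 12 libraries, and their order was not resolved. With the union of exons as the length, Scn2b lay above Scn3b in 12 of 12 libraries and Scn4b above Scn3a in 10. With the median coding transcript, 2110 bases for Scn8a because many of its 15 annotated coding transcripts are fragments, Scn8a lay above all others at 202 CPM per kb over the 12 libraries.

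**Figure D2:**
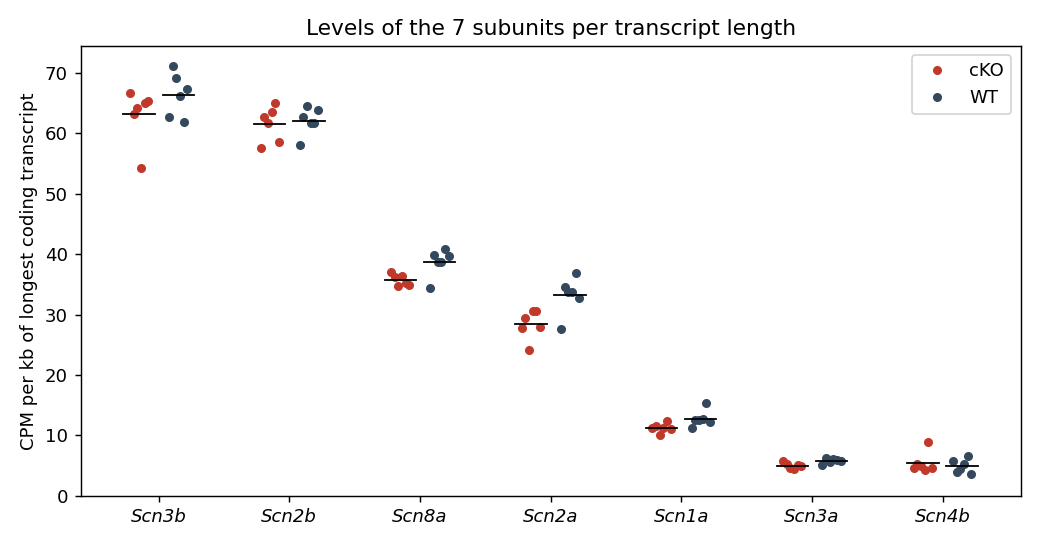
Level of each subunit gene in CPM per kb of its longest coding transcript, with 1 point per animal, cKO in red left of WT in dark blue, and a black line at each group mean. Scn3b and Scn2b overlap near 60, Scn8a and Scn2a lie between 24.1 and 40.9, Scn1a between 10.03 and 15.4, and Scn3a and Scn4b below 9.

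Scn8a and Scn2a made up most of the alpha pool in both genotypes. Of the summed alpha signal per kb, Scn8a made up 44.5 ± 1.64% in cKO and 42.9 ± 1.00% in WT, and Scn2a 35.3 ± 1.63% in cKO and 36.7 ± 0.811% in WT (SD, n = 6 each). Scn1a made up 13.97 ± 0.449% in cKO and 14.1 ± 0.783% in WT, and Scn3a 6.21 ± 0.540% in cKO and 6.41 ± 0.285% in WT. These shares are a description and were not tested. In bulk tissue, fewer cells of a type and less RNA per cell cannot be told apart.

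Between genotypes, all 4 alpha subunit genes had lower means in cKO, with differences of -14.4 to -7.63% of the fitted WT level, and the beta subunits lay closer to 0 or above it. None of the 7 genes passed an adjusted p of 0.05 in the edgeR quasi-likelihood test, against 0.0103% of all genes tested (2 of 19325). At an unadjusted p under 0.05 there were 4 of the 7, the 4 alpha subunits, all lower in cKO. Of all genes tested, 9.54% lay under that p in either direction, 6.34% lower and 3.2% higher in cKO. DESeq2 and limma-voom also placed 0 of the 7 past an adjusted p of 0.05 and 4 at an unadjusted p under 0.05. In none of the 7 genes did all cKO libraries lie below all WT libraries, which held for 0.223% of all genes tested. Each library is a separate numbered animal, so the p-values rest on animal-to-animal spread.

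Scn2a had 215, 256 and 274 CPM as its lowest, median and highest level in cKO, against 246, 302 and 329 CPM in WT. Apart from WT 1 at 246 CPM, every WT library lay above every cKO library. The means were 254 ± 22.02 CPM in cKO and 297 ± 27.6 CPM in WT (SD, n = 6 each). The log2 fold change was -0.22 ± 0.07 (SE), with an edgeR p of 0.00630 and an adjusted p of 0.354. Without the library labelled cKO 1 it was -0.23 (adjusted p = 0.221), and without WT 1 it was -0.28 (adjusted p = 0.0608). Other libraries moved it the other way. Leaving out cKO 3 gave -0.19 (adjusted p = 0.6), and leaving out WT 5 gave -0.19 (adjusted p = 0.702).

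Scn3a, the subunit best known from developing brain, had 42.1, 47.7 and 54.7 CPM as its lowest, median and highest level in cKO, against 48.9, 56.1 and 59.3 CPM in WT. Of the 6 cKO libraries, 4 lay below every WT library. Its log2 fold change was -0.22 ± 0.06 (SE; means 47.7 ± 4.48 CPM in cKO and 55.4 ± 3.89 CPM in WT), with an adjusted p of 0.353. The library labelled cKO 1 was the highest of its group at 54.7 CPM, and without it the log2 fold change was -0.27, with an adjusted p of 0.0923. Leaving out cKO 4, the lowest of that group, gave -0.18 (adjusted p = 0.476), and leaving out WT 5 gave -0.21 (adjusted p = 0.702).

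Scn8a, the most abundant of the alpha subunits per kb, had 397, 409 and 424 CPM as its lowest, median and highest level in cKO, against 393, 448 and 468 CPM in WT. The cKO libraries were close together, and 5 WT libraries lay above all of them while WT 1 lay below all of them. The log2 fold change was -0.11 ± 0.04 (SE; means 409 ± 10.7 CPM in cKO and 443 ± 26.0 CPM in WT), with an adjusted p of 0.395. Without the library labelled cKO 1 it was -0.13 (adjusted p = 0.192). Without WT 1 it was -0.15, and the adjusted p of 0.0570 was the smallest for Scn8a among 22 alternatives. Leaving out WT 5 gave -0.10, with the largest adjusted p among them, 0.737. Without WT 2, WT 3 and cKO 4, the libraries low in choroid plexus signal, Scn8a had an unadjusted p of 0.0506, and 3 subunits were left under 0.05.

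Scn1a had 84.1, 94.3 and 104 CPM as its lowest, median and highest level in cKO, against 93.9, 105 and 129 CPM in WT. Of the WT libraries 4 lay above every cKO library, and WT 5 lay apart at 129 CPM. The log2 fold change was -0.18 ± 0.07 (SE; means 94.2 ± 6.28 CPM in cKO and 107 ± 11.8 CPM in WT), with an adjusted p of 0.425. Without WT 5 it was -0.12 (adjusted p = 0.743). Leaving out the library labelled cKO 1 gave -0.19 (adjusted p = 0.294).

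The beta subunits differed by less than the spread of the animals. Scn2b had 268, 289 and 303 CPM as its lowest, median and highest level in cKO, against 270, 290 and 301 CPM in WT, and the groups overlapped. Its log2 fold change was -0.01 ± 0.04 (SE), with an adjusted p of 0.937, and 0.00 without the library labelled cKO 1. Scn3b had 225, 268 and 277 CPM in cKO, against 256, 277 and 295 CPM in WT, and the fold change on the log2 scale, -0.07 ± 0.05 (SE), had an adjusted p of 0.700. It was -0.10 without the library labelled cKO 1. Its lowest value came from cKO 4, and without WT 2, WT 3 and cKO 4 its log2 fold change was 0.01.

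Scn4b was the most variable of the 7 between animals. It had 21.4, 23.6 and 44.0 CPM in cKO, against 17.6, 24.5 and 32.9 CPM in WT, a coefficient of variation of 31.9% in cKO and 23.6% in WT, where the other 6 genes had 2.61 to 11%. The highest value was that of cKO 5. Its log2 fold change was 0.12 ± 0.19 (SE), with an adjusted p of 0.891, and without cKO 5 the sign turned, to -0.08. Without the library labelled cKO 1 it was 0.16.

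**Figure D3:**
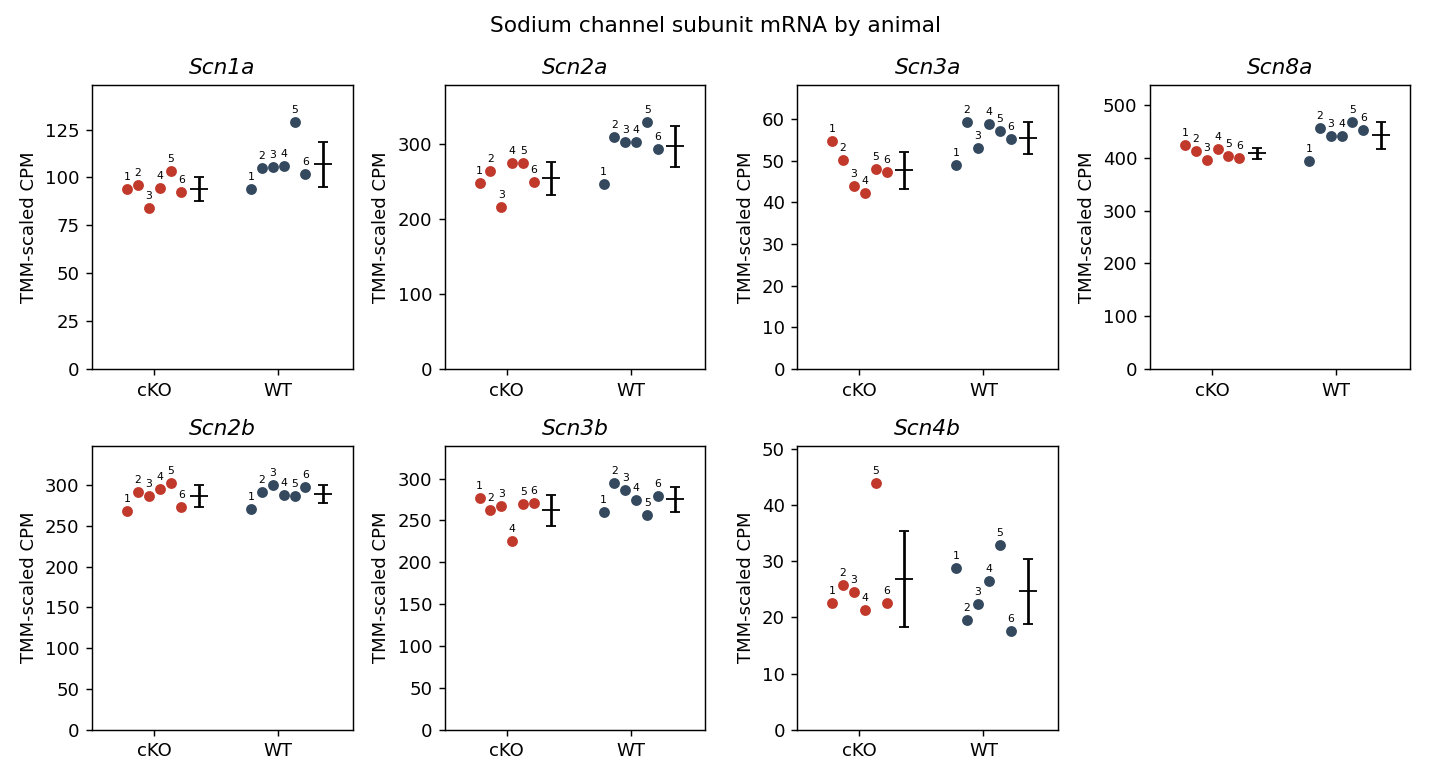
TMM-scaled CPM of the 7 subunit genes, 1 point per animal with its number, cKO in red left of WT in dark blue; the bar beside each group is the mean ± SD (n = 6), and each axis starts at 0. WT 1 is the lowest WT animal in all 4 alpha subunits, and cKO 5 stands apart at 44.0 CPM in Scn4b.

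Some alpha subunits took the same animals as their extremes. WT 1 was the lowest WT library in 4 of 4 alpha subunits, WT 5 the highest in 3 and cKO 3 the lowest cKO library in 3. Over the 12 libraries, the log2 CPM of Scn1a and Scn2a had a Pearson r of 0.91 (permutation p = 7e-05, adjusted p = 0.00147 over 21 pairs) and a Spearman rho of 0.92 (permutation p = 8e-05, adjusted p = 0.00168). Scn2a and Scn8a had an r of 0.88 (permutation p = 0.00023, adjusted p = 0.00241) and a rho of 0.89 (permutation p = 0.00034, adjusted p = 0.00357). Scn3a and Scn8a had an r of 0.80 (permutation p = 0.00268, adjusted p = 0.0141) and a rho of 0.78 (permutation p = 0.00362, adjusted p = 0.0190). Without the 2 libraries farthest from the median the 3 values of r were 0.91, 0.85 and 0.89. After the genotype means were subtracted they were 0.85, 0.77 and 0.62, with permutation adjusted p of 0.0706, 0.107 and 0.159 over the 21 pairs. Reads divided between Scn1a, Scn2a and Scn3a could not be examined separately.

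Scn3a was less like the other members of its cluster. Scn1a and Scn3a had an r of 0.67 (permutation p = 0.0134, adjusted p = 0.0406) and a rho of 0.72 (permutation p = 0.0104, adjusted p = 0.0436), with an r of 0.62 without cKO 3 and WT 5. Scn2a and Scn3a had an r of 0.69 (permutation p = 0.0129, adjusted p = 0.0406) and a rho of 0.69 (permutation p = 0.0151, adjusted p = 0.0528), with an r of 0.55 without the same libraries. Scn1a and Scn8a had an r of 0.79 (permutation p = 0.00062, adjusted p = 0.00434) and a rho of 0.80 (permutation p = 0.00247, adjusted p = 0.0173), with an r of 0.71 without them. Within genotype these 3 pairs had an r of 0.42, 0.42 and 0.65, with permutation adjusted p of 0.437, 0.449 and 0.285, so none of the 6 alpha pairs passed within genotype.

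Between alpha and beta subunits, Scn3a and Scn3b had an r of 0.66 (permutation p = 0.0135, adjusted p = 0.0406), close to that of Scn1a and Scn3a, and a rho of 0.55 (permutation p = 0.0678, adjusted p = 0.195). It was 0.42 without cKO 3 and cKO 4 and 0.59 within genotype (permutation adjusted p = 0.285). Scn2a and Scn2b had an r of 0.48 (permutation p = 0.115, adjusted p = 0.301) and a rho of 0.51 (permutation p = 0.0927, adjusted p = 0.195), and r was 0.73 without cKO 3 and WT 5. Between beta subunits, Scn2b and Scn3b had an r of 0.00 (permutation p = 0.999, adjusted p = 0.999) and a rho of 0.23 (permutation p = 0.472, adjusted p = 0.620), and r was 0.02 without the library labelled cKO 1 and WT 1.

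Among 10332 genes with a mean of at least 10 CPM, those most like each subunit over the 12 libraries were named by Pearson r, as a description without a test because they were picked for it. Scn2a was most like Kcnma1, the pore of the large-conductance calcium-activated potassium channel (r = 0.99, rho = 0.99), Tanc2 (0.98, 0.97) and Prkcb (0.97, 0.95). Scn8a was most like Akap6, an anchor of protein kinase A (r = 0.98, rho = 0.97), Ank2, an ankyrin (0.97, 0.97) and Nrcam, an adhesion molecule of initial segments and nodes (0.97, 0.95). For Scn3a they were Stxbp5, Dmd and Ralgapa1 (r of 0.97 each), and for Scn1a Pak7, Zfyve9 and Myo5a (r of 0.96 to 0.97). Of these 12 genes, Myo5a, Kcnma1, Tanc2, Stxbp5, Dmd, Ralgapa1, Akap6 and Ank2 have a longest coding transcript of 8.82 to 14.9 kb. Prkcb has 2.91 kb, Pak7 4.85 kb, Nrcam 6.275 kb and Zfyve9 6.46 kb. The share of long genes among the 10332 is not reported here. Kcnj16, Katnal1 and Rbfox2 were most like Scn2b (r of 0.91 to 0.94), Fam84a, Klhl29 and Ddx5 most like Scn3b (0.89 to 0.92) and Igsf11, Pdzrn3 and Cux1 most like Scn4b (0.85 to 0.92).

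Most genes with long mRNAs had lower means in cKO, and the alpha subunits belong to that class. Of 933 tested genes with a longest coding transcript of at least 8 kb, 79.0% had a lower mean in cKO, 33.2% were lower at an unadjusted p under 0.05, 0 passed an adjusted p of 0.05 in edgeR, and the median log2 fold change was -0.09. Over the 15490 tested genes with a coding transcript, 42.8% were lower, 5.71% were lower at that p, and the median was 0.01. Without the library labelled cKO 1, 80.4% of 934 long genes were lower, 43.4% at that p, with a median of -0.11. In steps of 2 kb, the median log2 fold change was 0.03 in genes under 2 kb, then 0.02, 0.00, -0.03 and -0.08, and -0.12 in genes of at least 10 kb. Scn2b, Scn3b and Scn4b fall in the step from 4 to 6 kb, with a median of 0.00 over 3313 genes.

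Set beside this class, the alpha subunits were within its spread. Among the 933 long genes, 10.7% had a log2 fold change below that of Scn2a, 12.1% below that of Scn3a, 18.8% below that of Scn1a and 40.5% below that of Scn8a. Library by library, the median deviation of the other long genes from their 12-library mean was -0.05 ± 0.05 in cKO and 0.05 ± 0.07 in WT on the log2 scale (SD, n = 6 each). The library labelled cKO 1 was the highest of its group at 0.04, the other 5 ranged from -0.09 to -0.01, and without it the cKO mean was -0.06 ± 0.03. Within WT it was lowest in WT 1 (-0.05) and highest in WT 5 (0.14), the libraries at the ends of the WT range for 3 of the 4 alpha subunits. The part of this class-wide difference in the alpha subunit values was not tested.

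**Figure D4:**
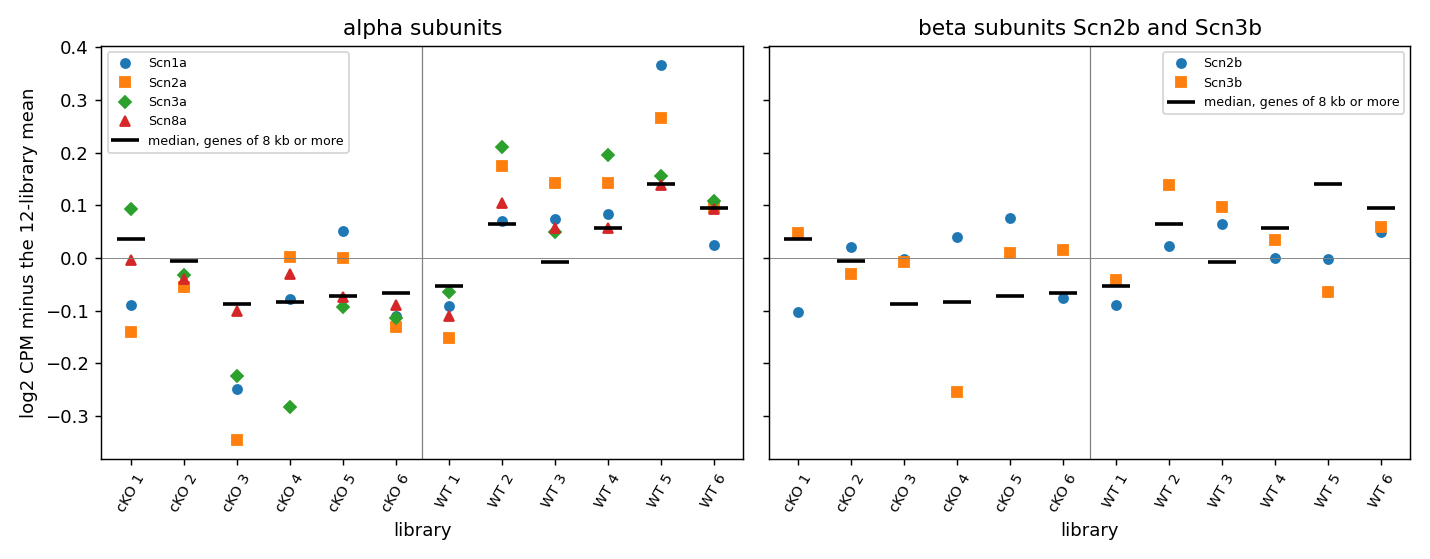
Deviation of log2 CPM from the 12-library mean for the 4 alpha subunits (left) and for Scn2b and Scn3b (right), by library, with cKO left of WT; the black bar is the median over the other tested genes with a coding transcript of at least 8 kb. Scn4b, which reaches 0.82 in cKO 5, is left out for scale. The alpha subunits and the long genes are both below 0 in WT 1 and above 0 in WT 2, WT 4, WT 5 and WT 6.

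On chromosome 2 the neighbours of the alpha subunits had fold changes of either sign. Csrnp3, a transcription factor gene next to Scn2a with a coding transcript of 10.7 kb, had 78.7 ± 5.39 CPM in cKO and 88.9 ± 6.32 CPM in WT (SD, n = 6 each). On the log2 scale its fold change was -0.18 ± 0.05 (SE; adjusted p = 0.353). Galnt3 (0.04 ± 0.13) and Ttc21b (-0.03 ± 0.04), which lie between Csrnp3 and Scn1a, had adjusted p of 0.943 and 0.871. Scn9a and Scn7a, on the far side of Scn1a, had 0.09 ± 0.18 and 0.25 ± 0.20. None of these passed, with or without the library labelled cKO 1, and without it Csrnp3 was at -0.19 and Galnt3 at 0.01.

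Of the other sodium channel genes described, Scn7a, an atypical sodium-sensing channel, had 2.21, 3.66 and 4.05 CPM as its lowest, median and highest level in cKO, against 1.82, 2.98 and 4.46 CPM in WT. The groups overlapped, and its log2 fold change of 0.25 ± 0.20 had an adjusted p of 0.747. Scn9a, of peripheral nerve, had 3.40 ± 0.573 CPM in cKO and 3.21 ± 0.905 CPM in WT, and an adjusted p of 0.918. The muscle gene Scn4a and the sensory neuron genes Scn10a and Scn11a had 0 to 7 counts per library and were not tested.

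Genes that hold or adjust sodium channels are given by role. In the initial segment and node scaffold list, 4 of 12 genes were lower in cKO at an unadjusted p under 0.05 and 0 were higher, with 11 lower in all, a median log2 fold change of -0.06 and none past the adjusted threshold. They were Ank3, which encodes ankyrin-G (-0.21 ± 0.06), Ank2 (-0.19 ± 0.05), Nrcam (-0.18 ± 0.07) and Sptan1, alpha-spectrin (-0.14 ± 0.04), with adjusted p of 0.353 to 0.407. Ank3 had 418 ± 20.8 CPM in cKO and 483 ± 49.7 CPM in WT (SD, n = 6 each). Over all genes tested the median log2 fold change was 0.01, 46.6% were lower, and 6.34% were lower at an unadjusted p under 0.05. Of the 933 genes with a coding transcript of at least 8 kb, 33.2% were lower at that p. Ank2, with 14.3 kb, is in that class and Nrcam, with 6.275 kb, is not. The lengths of Ank3 and Sptan1 are not reported here. The same 4 scaffold genes lay under that p when the library labelled cKO 1 was left out. Lower at it were then 8.96% of all genes and 43.4% of the long genes. The part of transcript length in these list counts was not tested.

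In the sodium leak channel complex, which carries a resting sodium current, 3 of 4 tested genes were lower in cKO at an unadjusted p under 0.05. Of all genes 6.34% were, and of the 933 genes of at least 8 kb 33.2% were. Which of the leak channel genes are that long is not reported here. Unc80 (-0.28 ± 0.07), Unc79 (-0.12 ± 0.05) and the pore gene Nalcn (-0.11 ± 0.05) had adjusted p of 0.343, 0.452 and 0.499, and Fam155a had 0.03 ± 0.04. The same 3 lay under that p without the library labelled cKO 1, and Unc80 alone did without WT 2, WT 3 and cKO 4. Left out singly, cKO 3, cKO 6, WT 2, WT 4, WT 5 or WT 6 each brought Nalcn above it. The edgeR p of Nalcn was then 0.0507 to 0.0846, and Unc79 and Unc80 stayed under 0.05. The intracellular FGF genes, whose proteins bind the alpha subunit tail, had 0 of 4 under an unadjusted p of 0.05, where 9.54% of all genes lay, with Fgf14 at -0.13 ± 0.07, Fgf11 at 0.13 ± 0.11, Fgf13 at -0.04 ± 0.04 and Fgf12 at 0.04 ± 0.10. The beta subunit genes of the sodium pump, which restores the sodium gradient, had 0 of 3 under it. Their log2 fold changes were 0.01 ± 0.04 in Atp1b1, 0.04 ± 0.04 in Atp1b2 and 0.06 ± 0.07 in Atp1b3.

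Among 11 channel regulators 2 were lower at an unadjusted p under 0.05 (6.34% of all genes) and 0 higher, with a median of -0.01. They were Ptprz1, a receptor phosphatase (-0.19 ± 0.06), and Nedd4l, a ubiquitin ligase (-0.08 ± 0.04), followed by Calm3 (-0.04 ± 0.03) and Nedd4 (-0.04 ± 0.04). With single libraries left out, Nedd4l stayed under that p only without the library labelled cKO 1, cKO 2, WT 1 or WT 5. Among 7 regulators of sodium channel RNA or transcription, 0 lay under that p, and the median was -0.03. The smallest p belonged to the splicing factor gene Rbfox1 (-0.12 ± 0.06), followed by Pum2 (-0.07 ± 0.04), Rbfox3 (-0.04 ± 0.03) and the repressor gene Rest (0.05 ± 0.09). Both Pum2 and Rbfox1 lay under 0.05 without the library labelled cKO 1, without cKO 2 or without WT 1. Rbfox1 did so without cKO 3, Pum2 without cKO 5, and Pum2 and Rbfox3 without WT 6. Without the library labelled cKO 1, 8.96% of all genes were lower at that p. In both lists 0 passed an adjusted p of 0.05 in edgeR.

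**Figure D5:**
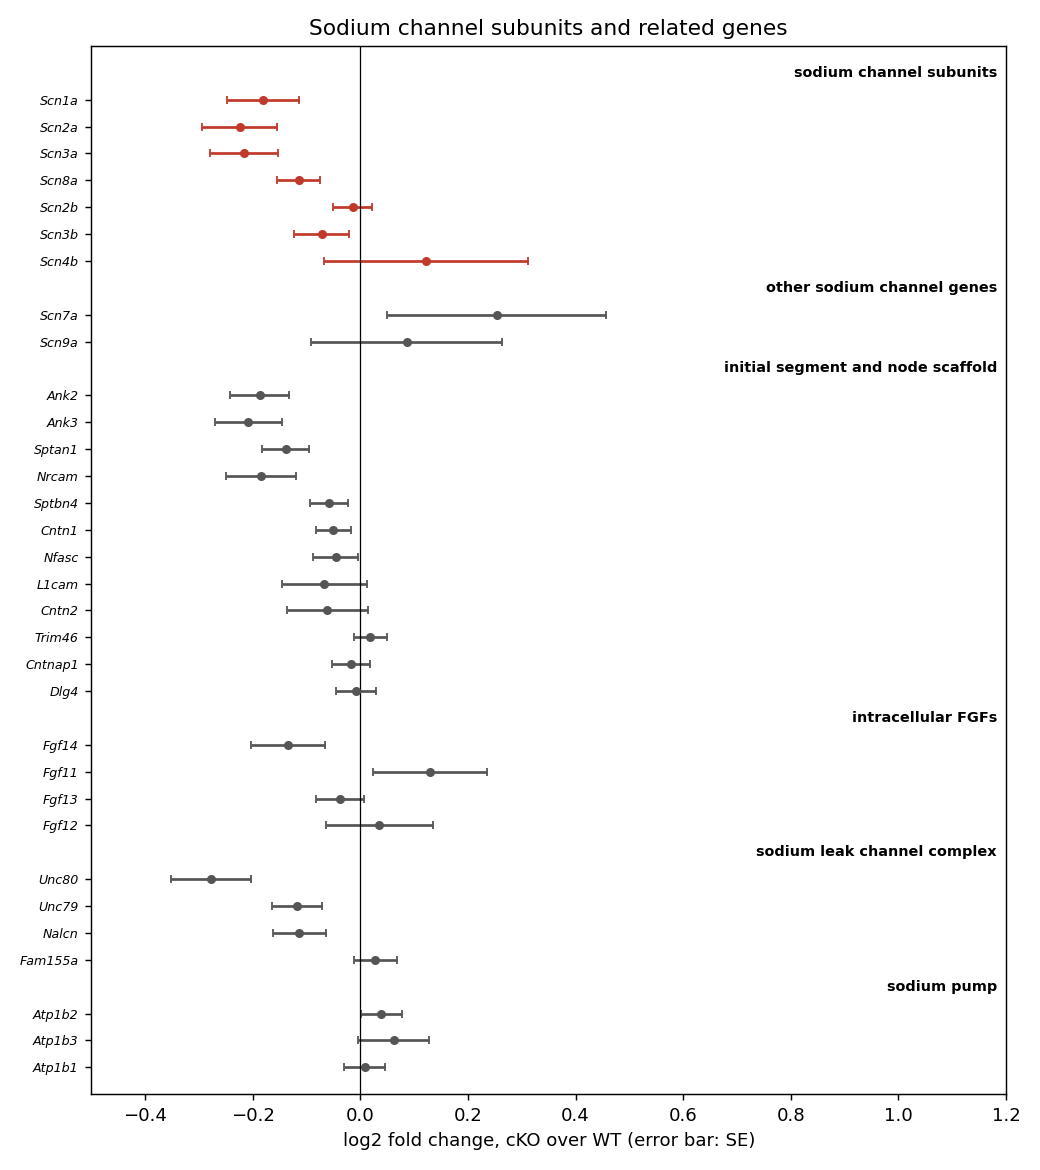
Log2 fold change, cKO over WT, with its SE for the 7 sodium channel subunits (red) and for genes of 5 related lists (grey), from edgeR over all 12 libraries; 0 marks equal levels. Scn1a, Scn2a, Scn3a, Scn8a, Ank2, Ank3, Nrcam and Unc80 lie between -0.28 and -0.11, while the sodium pump genes shown lie between 0.01 and 0.06.

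The ranges of summed markers overlapped between genotypes in the lists given here except for smooth muscle. A sum follows its most abundant genes, so overlap of sums does not show that single markers were equal. Summed pan-neuronal markers (Snap25, Rbfox3, Syt1, Map2, Tubb3, Stmn2, Eno2) had a lowest, median and highest level of 5418, 5658 and 6186 CPM in cKO and of 5522, 6045 and 6282 CPM in WT, and WT 1 was the lowest WT library. Among them Map2 had a mean of 997 CPM in cKO and 1152 CPM in WT, while Tubb3 and Stmn2 were not lower in cKO. All 4 excitatory neuron markers had lower means in cKO. Prox1 had 103 CPM in cKO and 119 in WT, and Neurod6 152 and 164. Camk2a had 4389 CPM in cKO and 4598 in WT, and Slc17a7 1402 and 1433. Interneuron markers (Gad1, Gad2, Slc32a1, Pvalb, Sst, Vip) summed to 590 to 768 CPM in cKO and 596 to 696 CPM in WT. Choroid plexus markers (Ttr, Folr1, Kl, Kcne2) ranged from 50.6 to 5355 CPM in cKO and from 80.0 to 8035 CPM in WT, with WT 1 the highest of all. Smooth muscle markers (Acta2, Myh11, Tagln) summed to 63.7 to 104 CPM in cKO and 33.9 to 63.5 CPM in WT, with none of the 3 at 0, so every cKO library lay above every WT library. Of the glial and vessel lists, oligodendrocyte markers summed to 2496 to 4147 CPM in cKO and 3069 to 4644 CPM in WT, and astrocyte markers to 1099 to 1217 CPM in cKO and 1073 to 1205 CPM in WT. Microglial markers summed to 162 to 180 CPM in cKO and 171 to 180 CPM in WT, and endothelial markers to 119 to 137 CPM in cKO and 114 to 133 CPM in WT. Mitochondrially encoded genes took 7.27 to 8.01% of counts in cKO and 6.86 to 7.97% in WT. The part of these values in the subunit results was not tested.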

How the data were processed

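The authors deposited expected counts per gene symbol, estimated read counts for 6 cKO and 6 WT hippocampi that were not scaled between libraries. Salmon 1.3.0 and the build GRCm38 were used, per the submitters' processing notes. No source used here gives the strand setting or the transcript annotation. The deposited counts were rounded to whole numbers and edgeR 4.0.16 (R 4.3.3) fitted its quasi-likelihood model over the whole table. TMM scaling, filterByExpr by genotype and Benjamini-Hochberg adjustment over 19325 genes were used, with a threshold of 0.05. Levels are TMM-scaled CPM, and levels between genes are divided by the longest coding transcript of GENCODE M21. Likeness used log2 CPM (prior count 2) and permutation tests with 100000 resamples, two-sided, over samples (scipy 1.17.1); within genotype, samples were permuted inside each genotype. The fit was tested on simulated data with fold changes larger than those of the subunits. That simulation cannot show whether folds of the subunits' size would pass.

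The members and lists were chosen with earlier results of these data known. Some genes of the related lists and marker lists are not reported here, and list counts leave them out. All 7 members and all remaining genes of the sodium channel, FGF, leak channel and pump lists were named. Of other lists the 4 genes with the smallest p were named, then the chromosomal neighbours and the 3 genes most like each member. The split by transcript length in steps of 2 kb, the place of the alpha subunits among long genes, and left-out libraries for long genes, lists and neighbours were added after the data were seen. The alternatives tried were DESeq2 1.42.0, voom of limma 3.58.1, scaling by RLE, by the upper quartile or by totals alone, other filters, a block on animal number and left-out libraries. The CPM precision is limited by counts of 819 to 22720 per library and member. The labels number the animals within each genotype.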

Additional observations from a re-analysis of the deposited data

Results flagged for a closer look

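In 18 groups of 6 animals (9 sodium channel genes in each genotype), 5 held a library far from the others, judged by its gap to the nearest library over the whole range of its group (Dixon's criterion); chance gives about 0.9. In cKO, cKO 5 stood apart in Scn4b with 44.0 CPM, and the other cKO animals lay between 21.4 and 25.8 CPM. That animal also stood apart in Scn7a with 2.21 CPM, against 3.37 to 4.05 CPM in the others of its genotype. In Scn3b, cKO 4 had 225 CPM and the other cKO libraries 263 to 277 CPM. In WT, Scn8a was low in WT 1 at 393 CPM, where the others had 442 to 468 CPM. Scn1a was high in WT 5 at 129 CPM, where the others had 93.9 to 106 CPM.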

How the results depend on the processing

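Of 154 log2 fold changes of the 7 subunits, from 22 alternatives each, 151 kept their direction and their side of the adjusted threshold. Scn4b turned to -0.0808 without cKO 5, and Scn3b to 0.0094 without WT 2, WT 3 and cKO 4. Scn3a passed, at -0.30 (adjusted p = 0.0299), only with animal number as a replicate block and without the library labelled cKO 1. In that fit WT 1 was alone in its block, so it did not inform the fold changes either. Under this setting 1 subunit passed, with 253 genes past the adjusted threshold and 2991 at an unadjusted p under 0.05. The cause was not tested. The 4 alpha subunits stayed at an unadjusted p under 0.05 under each left-out single library. Over those, log2 fold changes ran from -0.22 to -0.12 in Scn1a, -0.28 to -0.19 in Scn2a, -0.27 to -0.18 in Scn3a, -0.15 to -0.10 in Scn8a, -0.04 to 0.00 in Scn2b, -0.10 to -0.03 in Scn3b and -0.08 to 0.22 in Scn4b. All genes past the threshold numbered 0 to 6, and those at an unadjusted p under 0.05 numbered 1257 to 2799. The count past the threshold was 87 with DESeq2, 0 with limma-voom, 1 without a low-count filter, 1 with at least 1 CPM in 6 libraries, 0 without WT 2, WT 3 and cKO 4 and 0 with the replicate block alone. The labels do not say whether animals of the same number were paired. Their deviations correlated between -0.31 and 0.33, and 1 of the 6 numbers matched best with itself, which cannot decide this.

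With the union of exons as length, levels over the 12 libraries were 49.2 CPM per kb for Scn3b, 27.0 for Scn8a, 21.6 for Scn2a, 9.02 for Scn1a and 4.13 for Scn3a. With the median coding transcript they were 66.8 for Scn2b, 202 for Scn8a, 36.6 for Scn2a, 14.3 for Scn1a and 6.03 for Scn3a. Counting 8-base matches left 1 in Scn1a, 0 in Scn2a, 2 in Scn3a, 4 in Scn8a, 2 in Scn2b, 6 in Scn3b and 1 in Scn4b. Of genes with transcripts of at least 6 kb 71.2% were lower with a median of -0.0549, and at 10 kb the median was -0.12. At 8 kb, leaving out single libraries, added after the data were seen, gave 74.38 to 82.12% lower, with medians of -0.12 to -0.0697, and leaving out WT 2, WT 3 and cKO 4 gave 82.16% and -0.0961. How reads were divided between Scn1a, Scn2a and Scn3a is uncertain.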
